A study of Homo sapiens with 6 samples.

Results

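The miR-29 family consists of the microRNAs (miRNAs) hsa-miR-29a-3p, hsa-miR-29b-3p and hsa-miR-29c-3p, which were taken by probe name from the nCounter human v3 miRNA panel. They make up 3 of the 798 miRNA probes of the panel and 3 of the 152 whose counts stood clear enough of background for a test. They were picked by name and not by a cut on measured values, but with earlier results of these data known. All libraries came from A549, an established human lung adenocarcinoma cell line of alveolar epithelial origin. In the siAPE1 group the cells had been transfected for 72 h with 100 pmol of an siRNA against APE1 (n = 3). APE1, the product of APEX1, cuts DNA at abasic sites during base excision repair. In the siSCR group they had received the same amount of a scramble control siRNA for the same time (n = 3). Each group therefore rests on 1 siRNA sequence in 1 cell line, and the panel has no probe for APEX1, so the depletion of APE1 was not measured in these libraries. The study reports silencing of the APE1 protein in A549 cells by Western blot. The labels do not say whether replicates were separate cultures, while the text of the study speaks of biological replicates. On the labels alone the p-values cover no more than the spread among these libraries, which may be technical. The edgeR p-values and intervals below draw on a variance shared across the tested miRNAs. They can therefore look firmer than 3 libraries a group allow.

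The miR-29 miRNAs are cut from the 3′ side of short RNA hairpins by the nucleases Drosha and Dicer, are loaded into Argonaute proteins and pair through their seed, the bases next to the 5′ end, with target mRNAs, whose translation and stability fall. Their best known targets are mRNAs of fibrillar collagens, fibrillin and elastin, the de novo DNA methyltransferases DNMT3A and DNMT3B, and MCL1, which protects cells from apoptosis. In lung the family is known for restraining matrix production, and its loss has been described in fibrosis and in lung cancer. The mRNAs of these targets are not on the panel.

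The mature sequences are shown because they set what each probe can tell apart. They are written 5′ to 3′ as given by RefSeq (GRCh38.p14), with the seed, bases 2 to 8, in capitals.
hsa-miR-29a-3p: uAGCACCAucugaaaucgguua
hsa-miR-29b-3p: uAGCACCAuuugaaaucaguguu
hsa-miR-29c-3p: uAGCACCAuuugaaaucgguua
The seed AGCACCA was shared by all 3 members and by no other of the 706 panel probes that matched a RefSeq mature sequence by name (3 of 798 panel probes, 0.376%, and 3 of 2370 human mature sequences, 0.127%, looked for at bases 2 to 8 of the miRNA strand). Counted from 1 at the 5′ end, miR-29a-3p and miR-29c-3p differed by the single change C10U and were the same at 21 of 22 bases. miR-29b-3p differed from miR-29a-3p by C10U, G18A, U21G and A22U and had 1 extra base at its 3′ end. miR-29c-3p differed from miR-29b-3p by A18G, G21U and U22A within the 22 bases compared. The closest members on the panel, miR-29a-3p and miR-29c-3p, were thus separated by 1 base. Whether RNA of one was counted by the probe of the other was not tested.

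The 3′ end of miR-29b-3p carries AGUGUU, letters known from work in human cells as an element that takes this miRNA to the nucleus. Searched for at the last 6 bases of the miRNA strand, it was found in 2 of 2370 human mature sequences (0.0844%), and on the panel in miR-29b-3p and miR-519e-3p. The libraries held total RNA of whole cells, so where in the cell the miRNA lay was not measured.

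By the RefSeq annotation of GRCh38.p14 the family comes from 4 precursors in 2 pairs, all on the minus strand. On chromosome 7, miR-29a-3p lies in MIR29A at chr7:130876748-130876769 and miR-29b-3p in MIR29B1 at chr7:130877467-130877489, and 648 bases separate the precursors. On chromosome 1, miR-29c-3p lies in MIR29C at chr1:207801865-207801886 and the second copy of miR-29b-3p in MIR29B2 at chr1:207802450-207802472, with 503 bases between the precursors. Both precursors on chromosome 1 lie within MIR29B2CHG, a long noncoding host gene, while no annotated gene overlapped MIR29A or MIR29B1. The hairpins of miR-29b are shown, with the mature miRNA in capitals, because they give an identical miRNA from both chromosomes.
MIR29B1: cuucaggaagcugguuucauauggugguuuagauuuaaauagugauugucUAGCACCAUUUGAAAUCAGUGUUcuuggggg
MIR29B2: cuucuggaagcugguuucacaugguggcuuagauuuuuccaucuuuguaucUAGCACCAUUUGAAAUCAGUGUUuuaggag
They differ only outside the capitals, in the loop, on the other arm and at the 3′ end. The miR-29b-3p count therefore cannot be divided between the loci, whereas the sequences of miR-29a-3p and miR-29c-3p are each annotated on 1 chromosome. None of the 4 other-arm products (miR-29a-5p, miR-29b-1-5p, miR-29b-2-5p and miR-29c-5p) has a probe on the panel.

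The siAPE1 libraries held 312152 to 331524 counts in total and the siSCR libraries 370087 to 488407. Counts were divided by a scaling factor per library, taken from the positive controls and 5 housekeeping mRNAs, which ran from 0.817 to 0.958 in siAPE1 and from 0.884 to 1.34 in siSCR. These are called scaled counts. The background limit, the mean plus 2 SD of a library's negative controls, lay at 63.3 to 75.8 raw counts in siAPE1 and 53.1 to 70.6 in siSCR. The labelled cell type was checked with lists of marker miRNAs. Of 6 miRNAs of epithelium only miR-200b-3p was tested, at or under the limit in the siAPE1 libraries and above it in the 3 siSCR libraries. The summed level of these 6 was 247 to 311 scaled counts in siAPE1 and 268 to 317 in siSCR. None of 5 blood, 5 fibroblast and smooth muscle, or 5 muscle, liver and neuron miRNAs was above the limit in all libraries of either group. Their summed levels were 135 to 186, 169 to 223 and 154 to 177 scaled counts in siAPE1, against 119 to 135, 149 to 173 and 132 to 153 in siSCR. Negative controls at their mean level would sum to 191 in siAPE1 and 146 in siSCR over 6 probes, and to 160 in siAPE1 and 122 in siSCR over 5.

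All 3 members were lower in siAPE1 than in siSCR cells, by 33.3% for miR-29a-3p, 22.9% for miR-29b-3p and 32.8% for miR-29c-3p, and in none of them did the groups overlap. The fall of miR-29a-3p and miR-29c-3p held under every scaling tried. How many of all tested miRNAs did so was not counted. The fall of miR-29b-3p was of the size of the typical tested miRNA of the panel. It was lost when libraries were scaled on the miRNAs as a whole with TMM or DESeq2 size factors (log2 fold change -0.0024 and -0.012). With the total miRNA count it was smaller and no longer called (-0.15, edgeR, adjusted p = 0.173). Against miR-16-5p alone it was kept (log2 fold change -0.44). The background to these calls was high. Of the 152 tested miRNAs 92 (60.5%) passed an adjusted p of 0.1 in edgeR's quasi-likelihood test with Benjamini-Hochberg adjustment, of which 77 (50.7%) were lower and 15 higher in siAPE1, and in 80 (52.6%) every siAPE1 library lay below every siSCR library. The median log2 fold change of all tested miRNAs was -0.34. A call of "lower" for 3 of 3 members therefore stands against a panel in which about every other tested miRNA was called lower.

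miR-29b-3p was the most counted member. Its raw counts were 15026, 16912 and 12433 in siAPE1 replicates 1 to 3, against 22300, 25839 and 21231 in siSCR. After scaling these were 15689, 17711 and 15209 in siAPE1 and 19761, 19267 and 24023 in siSCR (mean 16203 ± 1328 and 21017 ± 2615, SD, n = 3 each). The highest siAPE1 library, replicate 2, stayed below the lowest siSCR library, also replicate 2. The log2 fold change was -0.38 ± 0.16 (SE; edgeR, adjusted p = 0.0340), with a 95% interval from -37.8% to -4.40%. Without siAPE1 replicate 1 the log2 fold change was -0.35 and the adjusted p 0.121. The call was thus not kept, though the fold change moved little. Among the fits without 1 library, leaving out siSCR replicate 3 moved the log2 fold change most, to -0.27, and the call was kept (edgeR, adjusted p = 0.0486).

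miR-29a-3p, the chromosome 7 member, had raw counts of 4821, 5183 and 5635 in siAPE1 and 8565, 11103 and 8955 in siSCR. The scaled counts were 5034, 5428 and 6893 in siAPE1, against 7590, 8279 and 10133 in siSCR (mean 5785 ± 980 and 8667 ± 1315, SD, n = 3 each). Replicate 3 was the highest of its group on both sides, and the groups stayed apart. The log2 fold change was -0.58 ± 0.17 (SE; edgeR, adjusted p = 0.00196), with a 95% interval from -47.1% to -15.7%.

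miR-29c-3p, the chromosome 1 member, was counted far less often, with 442, 509 and 461 raw counts in siAPE1 and 899, 1004 and 683 in siSCR. Scaled, it had 461, 533 and 564 counts in siAPE1 and 797, 749 and 773 in siSCR (mean 519 ± 52.5 and 773 ± 24.0, SD, n = 3 each). The gap between the highest siAPE1 and the lowest siSCR library was wider than the spread within either group. The log2 fold change was -0.57 ± 0.17 (SE; edgeR, adjusted p = 0.00189), with a 95% interval from -46.5% to -15.6%. In a bulk sample of this kind a lower level per cell and fewer cells holding the miRNA cannot be told apart.

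**Figure D1:**
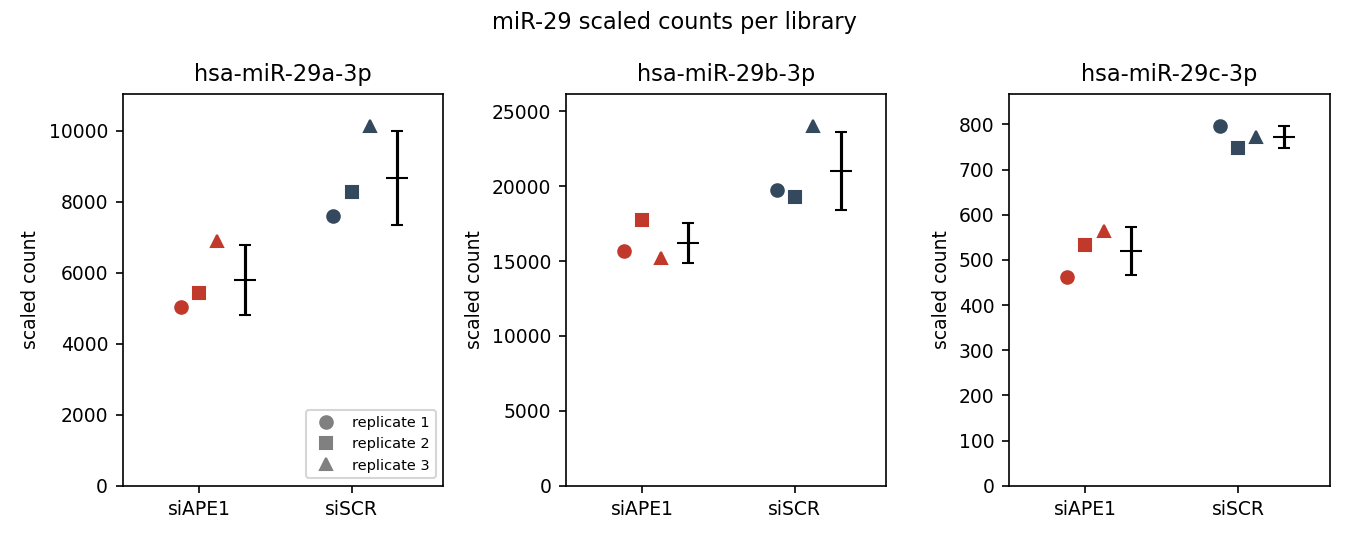
Scaled counts of the 3 members in each library (vertical axis, from 0), with siAPE1 left and siSCR right; symbols are replicates and the bar beside them is the mean ± SD (n = 3). In each panel the 3 siAPE1 libraries lie below the 3 siSCR libraries, with the widest gap relative to the spread for miR-29c-3p.

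The order of the counts was the same in every library, miR-29b-3p above miR-29a-3p above miR-29c-3p, with no overlap between neighbours. These are counts of different probes, whose ligation and hybridisation may differ, and they order the signals and not the molecules. Among all miRNA probes, miR-29b-3p ranked 3, 3 and 4 by count in the siAPE1 libraries and 2 in each siSCR library. miR-29a-3p ranked 8 to 10 in siAPE1 and 8 in each siSCR library. miR-29c-3p ranked 48 to 49 in siAPE1 and 38 to 46 in siSCR. All members lay well clear of background, since miR-29c-3p, the lowest, was 5.83 to 7.97 times the background limit in siAPE1 and 10.0 to 16.9 times in siSCR, and miR-29b-3p 196 to 265 times in siAPE1 and 312 to 420 times in siSCR.

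Set against the other tested miRNAs, the family was not at the edge of the distribution. Of the 152, 45 had a lower log2 fold change than miR-29a-3p, 47 a lower one than miR-29c-3p and 72 a lower one than miR-29b-3p. Relative to the median of the panel, miR-29a-3p stood at -0.25, miR-29c-3p at -0.24 and miR-29b-3p at -0.04 on the log2 scale.

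**Figure D2:**
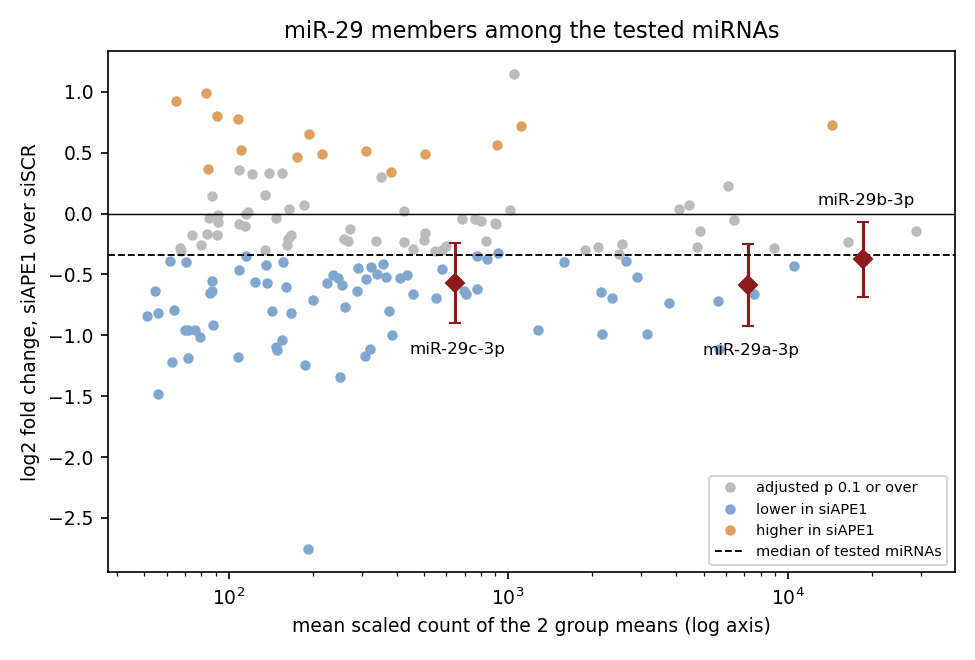
Log2 fold change of siAPE1 over siSCR (vertical axis) against the mean scaled count (horizontal log axis) of the 152 tested miRNAs, coloured by call, with the miR-29 members as diamonds with 95% intervals. miR-29b-3p lies next to the dashed line, the median of -0.34, and the other two members lie below it.

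The size of the fall depended on the reference to which libraries were scaled. Scaling on the positive controls alone, which carry the amount of assay signal and no RNA of the cells, gave log2 fold changes of -1.00 for miR-29a-3p, -0.76 for miR-29b-3p and -1.00 for miR-29c-3p. The housekeeping mRNAs were themselves lower in siAPE1 on that scale, by log2 differences of -0.32 for ACTB (beta-actin), -0.64 for B2M (beta-2 microglobulin), -0.56 for GAPDH (a glycolytic enzyme), -0.32 for RPL19 and -0.37 for RPLP0 (both ribosomal proteins). Whether this came from the amount of RNA loaded or from the mRNAs was not tested. TMM, which assumes that most tested miRNAs do not change, moved the median of all tested miRNAs from -0.34 to 0.02 and called 46 (30.3%) lower and 47 (30.9%) higher.

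With TMM miR-29a-3p and miR-29c-3p were still lower in siAPE1, with log2 fold changes of -0.22 ± 0.08 and -0.22 ± 0.09 (SE; edgeR, adjusted p = 0.0251 and 0.0428). miR-29b-3p was at -0.00 ± 0.10 (adjusted p = 0.981), and its 95% interval ran from -0.22 to 0.21 on the log2 scale. Scaled to the total miRNA count, the log2 fold changes were -0.37 for miR-29a-3p (adjusted p = 0.00175), -0.15 for miR-29b-3p (adjusted p = 0.173, 95% interval -20.9% to 3.20%) and -0.37 for miR-29c-3p (adjusted p = 0.00445). By point value miR-29b-3p fell less than the other two members under each of these scalings.

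miR-16-5p, a miRNA of the miR-15/16 family that the study used as its qPCR reference, had a log2 fold change of 0.07 ± 0.18 (adjusted p = 0.756) with the main scaling and 0.44 with TMM (adjusted p = 0.000221). Relative to it, the count of miR-29a-3p was 1.23, 1.17 and 1.40 in siAPE1, against 1.94, 2.09 and 1.98 in siSCR. The ratio of miR-29b-3p to miR-16-5p was 3.84, 3.81 and 3.09 in siAPE1 and 5.06, 4.85 and 4.69 in siSCR. That of miR-29c-3p was 0.113, 0.115 and 0.114 in siAPE1 and 0.204, 0.189 and 0.151 in siSCR. Within-library ratios of this kind need no scaling factor, and for each member all siAPE1 libraries lay below all siSCR libraries. With miR-16-5p as the reference, 104 of the 152 tested miRNAs were called lower and 15 higher in edgeR. The median log2 fold change was then -0.41, so a fall against miR-16-5p was common on the panel.

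Against single housekeeping mRNAs the same held for most pairs. The ratio of miR-29c-3p was lower in siAPE1 with no overlap against all 5, by log2 differences from -0.67 to -0.36. For miR-29a-3p the groups were apart against 4 of 5, all but GAPDH (-0.68 to -0.36 over the 5). For miR-29b-3p they were apart against ACTB, RPL19 and RPLP0 and overlapped against B2M and GAPDH (-0.46 to -0.15 over the 5). How many of all tested miRNAs were apart against each single mRNA was not counted. With the main scaling 80 of 152 (52.6%) were apart and lower, so such separation is not particular to the members.

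**Figure D3:**
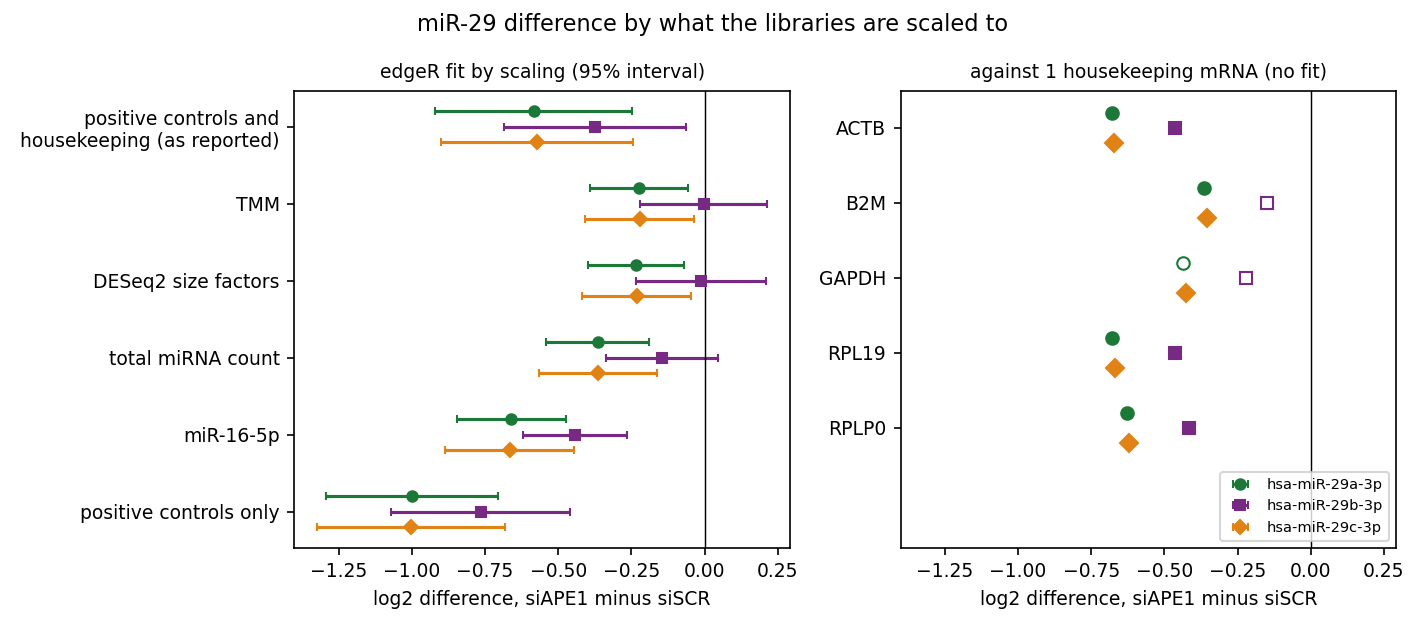
Left, log2 difference of siAPE1 minus siSCR for each member in the edgeR fit with its 95% interval, by what the libraries were scaled to; right, the log2 difference of each member's ratio to 1 housekeeping mRNA, with open symbols where the groups overlapped. All points of miR-29a-3p and miR-29c-3p lie below 0, and miR-29b-3p lies to the right of both in every row, reaching -0.00 with TMM.

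Taken as a family, the 3 probes held 21184, 23672 and 22666 scaled counts in siAPE1 and 28147, 28294 and 34929 in siSCR. The siAPE1 mean was 22507 ± 1251 and the siSCR mean 30457 ± 3874 (SD, n = 3 each), and the log2 difference was -0.43, which is a change of -25.8% (exact two-sided permutation test, p = 0.1). With 3 libraries against 3 this is the smallest p the test can give. Under other scalings the log2 difference of the sum was -0.070 (TMM), -0.080 (DESeq2 size factors), -0.21 (total miRNA count) and -0.85 (positive controls only). The sum follows miR-29b-3p, which made up 72.0% ± 4.25 of the family's counts in siAPE1 and 69.0% ± 1.08 in siSCR. miR-29a-3p made up 25.7% ± 4.10 and 28.4% ± 1.26, and miR-29c-3p 2.31% ± 0.162 and 2.56% ± 0.317, in siAPE1 and siSCR cells (SD, n = 3 each).

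As a share of all miRNA counts of a library, which needs no scaling, the family held 10.4%, 10.7% and 9.42% in siAPE1 and 11.8%, 11.5% and 12.01% in siSCR. The 95% exact binomial interval of each share was at most 0.272 percentage points wide and covers counting error only. The mean share was 10.2% ± 0.677 in siAPE1 and 11.8% ± 0.265 in siSCR (SD, n = 3 each), a difference of -1.60 percentage points with no overlap (exact two-sided permutation test, p = 0.1, the smallest possible). With background subtracted from all miRNA probes the difference was smaller, at -1.33 percentage points. The shares of miR-29a-3p (2.46% to 2.87% in siAPE1, 3.19% to 3.48% in siSCR) and of miR-29c-3p (0.227% to 0.241% in siAPE1, 0.266% to 0.335% in siSCR) did not overlap. Those of miR-29b-3p did, with 6.32% to 8.02% in siAPE1 and 7.82% to 8.32% in siSCR. How many of all tested miRNAs had shares that did not overlap was not counted. With libraries scaled to the total miRNA count, 65 of the 152 tested miRNAs were called lower in edgeR, so a lower share was common.

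The ratios between members compare them within a library, without a scaling factor. The ratio of miR-29b-3p to miR-29a-3p was 3.12, 3.26 and 2.21 in siAPE1 and 2.60, 2.33 and 2.37 in siSCR. siAPE1 replicate 3 was the lowest of all 6 libraries, while the other 2 siAPE1 libraries were the highest. The log2 difference was 0.21 (exact two-sided permutation test, p = 0.4), without siAPE1 replicate 3 it was 0.39 with the groups apart, and without siAPE1 replicate 1 or 2 it was 0.14 or 0.11. The ratio of miR-29c-3p to miR-29a-3p, whose probes are subject to the limit of a 1-base difference given above, was 0.0917, 0.0982 and 0.0818 in siAPE1 and 0.105, 0.0904 and 0.0763 in siSCR. Its log2 difference was 0.01 (exact two-sided permutation test, p = 0.9), and leaving out 1 library at a time gave values from -0.11 to 0.12. Finally, the ratio of miR-29c-3p to miR-29b-3p was 0.0294, 0.0301 and 0.0371 in siAPE1, against 0.0403, 0.0389 and 0.0322 in siSCR (log2 difference -0.21, exact two-sided permutation test, p = 0.2). Without siAPE1 replicate 3, and likewise without siSCR replicate 3, that difference was -0.31 and the groups no longer overlapped. None of the 3 ratios separated the groups over all 6 libraries, and the separate behaviour of miR-29b-3p under TMM does not rest on a test of that difference.

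**Figure D4:**
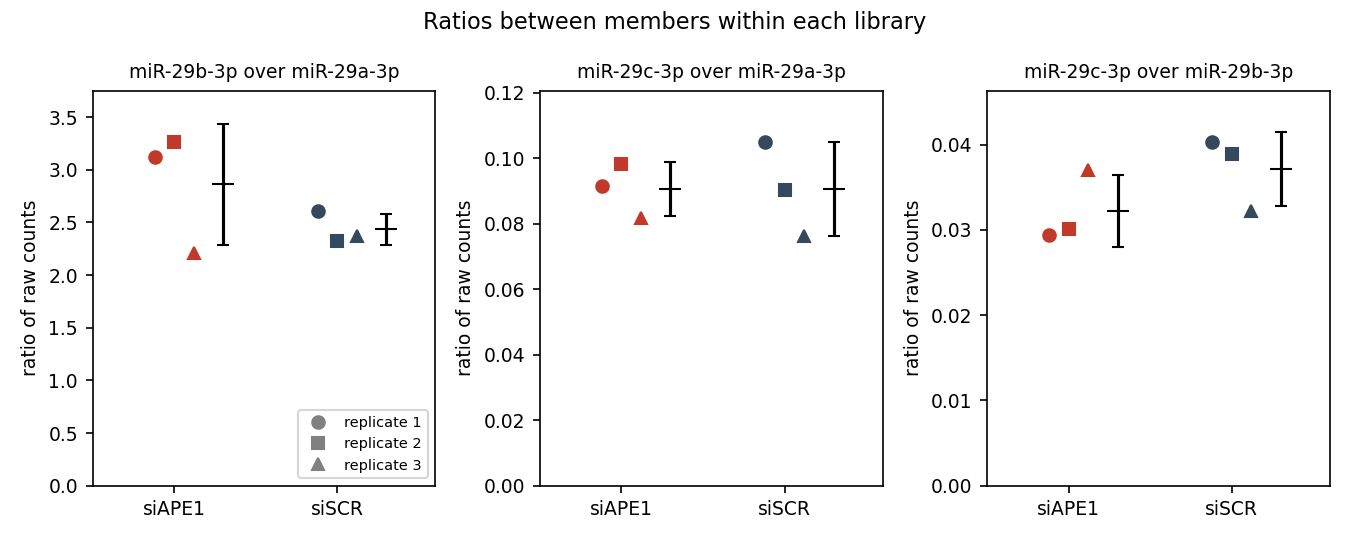
Ratios of raw counts between members within each library (vertical axes, from 0), with siAPE1 left and siSCR right; symbols are replicates, and the bar is the mean ± SD (n = 3). The groups overlap in all 3 panels, and siAPE1 replicate 3 stands away from the other siAPE1 libraries where miR-29b-3p is in the ratio.

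Among the 706 panel probes with a RefSeq sequence, 1 outside the family, miR-767-5p, had the last 6 bases of the miR-29 seed within its bases 2 to 8. It was above the background limit in none of the 6 libraries (18.9 to 32.8 scaled counts) and was not tested.

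Other miRNAs whose precursors lie within 2 Mb of a miR-29 precursor were looked at next. By RefSeq there were 6 such panel probes, of which 3 were tested, and these 3 were lower in siAPE1, beside 50.7% of all tested miRNAs. They belong to MIR183, MIR96 and MIR182, neighbours of each other on chromosome 7 about 1.1 Mb from the miR-29 precursors, whose miRNAs are known from sensory cells and as oncogenic in several carcinomas. miR-183-5p had 110, 120 and 133 scaled counts in siAPE1 and 200, 215 and 224 in siSCR (log2 fold change -0.82 ± 0.18, SE; edgeR, adjusted p = 3.80e-05). miR-96-5p had 106, 99.5 and 106 scaled counts in siAPE1 and 182, 169 and 196 in siSCR (log2 fold change -0.80 ± 0.18, SE; edgeR, adjusted p = 6.67e-05). miR-182-5p had 87.7, 93.2 and 125 in siAPE1 and 189, 210 and 230 in siSCR (log2 fold change -1.04 ± 0.18, SE; edgeR, adjusted p = 2.39e-07). With TMM all 3 were called lower, beside 30.3% of all tested miRNAs, at -0.46 for miR-183-5p, -0.44 for miR-96-5p and -0.69 for miR-182-5p. miR-335-5p, miR-182-3p and, on chromosome 1, miR-205-5p were not tested.

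Several groups of miRNAs known to act on the same targets or in the same processes as miR-29 were described beside it. Of all tested miRNAs 50.7% were called lower, and of the 133 that were above the background limit in at least 1 library of each group 61 (45.9%) were, with a median log2 fold change of -0.29. The counts of the lists are small, and nothing particular to a list was tested. Of 7 other miRNAs known to repress DNA methyltransferase mRNAs, 4 were tested and 2 were lower in siAPE1. Of these, miR-148a-3p passed the filter on low counts only through siSCR, which favours a difference, so its call is no support. Of the other 3, 1 was lower, and their median log2 fold change was -0.21. miR-148a-3p had 48.0, 53.4 and 46.5 scaled counts in siAPE1, all under the background limit, and 310, 333 and 359 in siSCR (log2 fold change -2.75 ± 0.20, SE; edgeR, adjusted p = 2.05e-36), so that background limits the size of this fold. miR-148b-3p, which has the same seed as miR-148a-3p, had 245, 274 and 303 in siAPE1 and 521, 488 and 424 in siSCR (-0.80 ± 0.17, adjusted p = 1.52e-05). miR-342-3p and miR-185-5p had log2 fold changes of -0.13 (adjusted p = 0.523) and -0.21 (adjusted p = 0.310). With TMM miR-148b-3p was still lower, at -0.46 (edgeR, adjusted p = 0.00674), and miR-342-3p was called higher, at 0.25 (adjusted p = 0.0543).

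Of 7 other miRNAs known to restrain fibrosis, 4 were tested and 1, miR-26a-5p, was lower in siAPE1 (276 ± 29.5 scaled counts, against 373 ± 25.5 in siSCR, SD, n = 3 each; log2 fold change -0.44, edgeR, adjusted p = 0.0196). It had -0.08 with TMM. The other tested members did not pass, namely let-7d-5p at -0.08, miR-30c-5p at -0.22 and miR-200b-3p, above the limit in siSCR only, at -0.31. With TMM let-7d-5p was called higher, at 0.28 (adjusted p = 0.00306). Of 6 miRNAs known to promote fibrosis, 3 were tested and 2 were lower in siAPE1. These were miR-424-5p (1801 ± 493 in siAPE1 and 2916 ± 172 in siSCR, SD, n = 3 each; log2 fold change -0.70, edgeR, adjusted p = 0.000519) and miR-154-5p (-0.84, adjusted p = 2.68e-05). miR-154-5p was above the background limit in the siSCR libraries only, which favours a difference, so its call is no support. Of the other 2 tested, 1 was lower, and their median log2 fold change was -0.46. miR-21-5p, an abundant miRNA known to favour fibrosis and tumour growth, had 15091 ± 1617 in siAPE1 and 17756 ± 902 in siSCR (SD, n = 3 each) with a log2 fold change of -0.23 (edgeR, adjusted p = 0.195). With TMM miR-424-5p was still lower, at -0.36 (edgeR, adjusted p = 0.0227), and miR-21-5p was not called, at 0.12 (adjusted p = 0.230).

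Of 5 other miRNAs known to repress MCL1, 2 were tested and neither passed. miR-125b-5p had a log2 fold change of -0.28 (edgeR, adjusted p = 0.142). miR-193b-3p stood at 0.33 (adjusted p = 0.109) with the main scaling and at 0.69 with TMM (adjusted p = 0.000150), where it was called higher.

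Over the 6 libraries, the log2 scaled counts of miR-29a-3p and miR-29c-3p had a Pearson correlation of 0.90, those of miR-29b-3p and miR-29c-3p 0.81, and those of miR-29a-3p and miR-29b-3p 0.80. These values are descriptions, since the miRNAs share libraries and scaling factors and the difference between groups enters all of them. The tested miRNAs most like the mean of the members were miR-30e-3p (r = 0.995), miR-27b-3p (0.993), miR-191-5p (0.991), miR-99b-5p (0.990) and miR-107 (0.984), and 55 tested miRNAs outside the family had an r above 0.9. These 5 were lower in siAPE1, as their choice by likeness to members that were lower in the same libraries would give. miR-27b-3p, at a level close to that of miR-29a-3p, had 5001, 6060 and 6559 scaled counts in siAPE1 and 8235, 8957 and 10610 in siSCR (log2 fold change -0.66). miR-30e-3p had 177, 204 and 229 in siAPE1 and 290, 283 and 343 in siSCR (-0.58). For miR-107, miR-99b-5p and miR-191-5p the log2 fold changes were -0.66, -0.95 and -0.99.

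**Figure D5:**
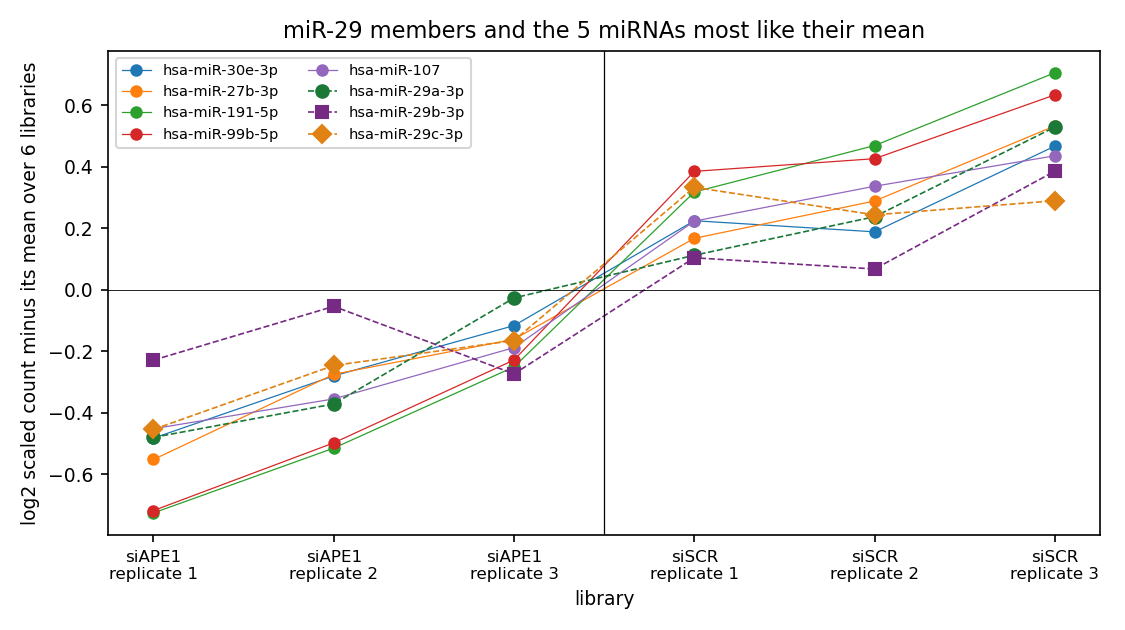
Log2 scaled count of the 3 members (dashed) and of the 5 tested miRNAs most like their mean (solid), each minus its own mean over the 6 libraries, by library with siAPE1 left; lines only join the points of 1 miRNA. All 8 lie below 0 in the siAPE1 libraries and above 0 in the siSCR libraries, and miR-29b-3p spans less than the other 2 members.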

How the data were processed

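miRNAs were measured in 100 ng of total RNA per library on the nCounter human v3 miRNA panel, which tags, hybridises and counts without amplification. The authors deposited raw counts per probe for each library, with no correction. They also deposited a table of the series whose values are a score, a straight line of each probe's raw count that is the same in all 6 libraries and does not scale libraries to each other (126 probes checked, largest residual 0.640); its rows are numbered and were matched by the order of the raw files. It served only as an alternative. The study's methods name NanoStringDiff, which was not used here.

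A library's scaling factor was its positive-control factor (slope of 6 controls) times its housekeeping factor (median ratio of 5 mRNAs, less the mean of the negative controls). A miRNA was tested when its count exceeded the mean plus 2 SD of the 8 negative controls in at least 3 libraries. Groups were compared with edgeR 4.0.16 (R 4.3.3), robust quasi-likelihood test on raw counts with these factors as offsets, two-sided. Benjamini-Hochberg adjustment ran over 152 miRNAs, with a threshold of 0.1, the q-value limit of the study. For its list of changed miRNAs the study also required a minimum fold change. That second limit was not applied here, and with the main scaling none of the members would have reached it. Single values per library had an exact permutation test (scipy 1.17.1). The code was tested on simulated counts. DESeq2 1.42.0, limma 3.58.1, other scalings, filters, pseudocounts and the removal of each library were alternatives.

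The members, lists and tests were chosen with earlier results of these data known. The miRNAs named are the members, listed relatives, tested members of the lists, tested neighbours within 2 Mb (141 probes with no hairpin sequence given here were placed by the RefSeq gene table), the 5 with the highest Pearson correlation with the members' mean and miR-16-5p. Precursors and sequences come from RefSeq (GRCh38.p14).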

Additional observations from a re-analysis of the deposited data

How the results depend on the processing

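miR-29a-3p and miR-29c-3p kept their direction and stayed past the threshold in all 21 alternatives, with log2 fold changes from -1.00 to -0.22 for each and adjusted p-values from 2.19e-10 to 0.0409 and from 5.25e-09 to 0.0428. How many other tested miRNAs did so was not counted, and with TMM 46 of 152 (30.3%) were called lower. miR-29b-3p stayed past the threshold, in the same direction, in 16 of 21. It was not past the threshold with TMM (log2 fold change -0.0024), DESeq2 size factors (-0.012), the total miRNA count (-0.15) or no filter on low counts (-0.38, adjusted p = 0.114, with 798 probes tested). Leaving out 1 library at a time gave -0.44 to -0.27 for miR-29b-3p, with adjusted p-values from 0.0452 to 0.121, the highest without siAPE1 replicate 1. For miR-29a-3p the range was -0.73 to -0.46 and for miR-29c-3p -0.64 to -0.49. The fall of the family sum, -0.43 on the log2 scale, moved to -0.070 with TMM, -0.080 with DESeq2 size factors, -0.21 with the total miRNA count and -0.85 with the positive controls only.

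The 92 calls were 152 without a filter on low counts, 74 lower and 78 higher in siAPE1. The split of lower to higher calls was 77 to 15 as reported, 46 to 47 with TMM, 50 to 47 with DESeq2 size factors, 65 to 32 with the total miRNA count, 104 to 15 with miR-16-5p as the reference and 128 to 6 with the positive controls only. Without 1 library there were 65 to 107 calls. With the replicate number as a block, the log2 fold changes were -0.59, -0.37 and -0.58 for miR-29a-3p, miR-29b-3p and miR-29c-3p (adjusted p = 6.25e-05, 0.0148 and 0.000124), with 116 calls. Deviations of same-number libraries from their group means correlated at -0.589, -0.0132 and -0.493, and no library correlated best with its own number. Within a group of 3 such deviations are tied to each other, so these values cannot settle whether the numbers pair the libraries. On the deposited table divided by the scaling factors, an alternative chosen after seeing the data, the values were -0.59, -0.37 and -0.61. The counts of the members were far above background, so counting error was small beside the spread of 3 libraries a group, and with 3 against 3 an exact test cannot go below 0.1.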
